A study of Homo sapiens with 6 samples.

Results

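Genes that mark pluripotent stem cells and neural progenitors were followed in neurons derived from a human line of induced pluripotent stem cells (iPSCs), to ask which of them differed between control neurons and neurons whose line was labelled a knockout of PEDS1. PEDS1 encodes plasmanylethanolamine desaturase, the enzyme that puts the vinyl ether bond into plasmalogens. The set was a list of 10 symbols, namely the RNA-binding proteins LIN28A and LIN28B, the stem cell factors DPPA4 and L1TD1, the transcription factors SOX2, OTX2, PAX6 and HES1, the matrix protein tenascin-C (TNC) and the intermediate filament vimentin (VIM). Of these, 8 matched a symbol among the 16625 genes of the expression table, while L1TD1 and HES1 are not analysed here. Every gene of the table had a mean of at least 5.93 normalized counts over the libraries, so all counts below are over the 8 genes above that floor.

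Each group held 3 libraries, 3 control and 3 labelled PEDS1 knockout. Both lines derived from UCSFi001-A, a human iPSC line, and the labels' protocol gives both a doxycycline-inducible NGN2 (NEUROG2) transgene at the AAVS1 locus. Doxycycline switched on this proneural factor, which drives stem cells straight to a neuronal fate. All cells also received a ROCK inhibitor for the first 24 h and later BDNF, NT-3 and laminin in the maturation medium, and they were replated on day 3 and sampled as neurons of 10 to 14 days. The labels name 1 control line and 1 knockout line and do not say that the 3 libraries of a line were separate cultures, so every p-value reflects only how far these libraries spread, and that spread may be technical.

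LIN28A and LIN28B bind the precursors of the let-7 microRNAs and block their maturation, and mature let-7 in turn represses both LIN28 messages, a double-negative loop that favours LIN28 in stem cells and let-7 in differentiated cells. SOX2 is shared by pluripotent cells and neural progenitors, OTX2 specifies forebrain and midbrain, and PAX6 is needed for the eye and for cortical radial glia. NGN2-driven neurons pass through the progenitor stage briefly, so these genes are usually read as signs of incomplete or regionally directed differentiation.

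Mature let-7 sequences are shown because the LIN28 genes control this family and carry its target sites. The names below are in RefSeq's miRNA set for GRCh38.p14, in the 5′ to 3′ direction, with the seed (bases 2 to 8) in capitals. All 9 sequences shared 1 seed. The microRNAs themselves were not measured by these libraries.
let-7a-5p: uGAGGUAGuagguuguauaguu
let-7b-5p: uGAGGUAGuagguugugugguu
let-7c-5p: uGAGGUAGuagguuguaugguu
let-7d-5p: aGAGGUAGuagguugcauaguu
let-7e-5p: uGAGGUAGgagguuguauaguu
let-7f-5p: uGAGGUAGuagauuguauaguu
let-7g-5p: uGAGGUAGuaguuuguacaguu
let-7i-5p: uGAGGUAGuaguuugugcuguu
miR-98-5p: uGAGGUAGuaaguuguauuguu

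The reverse complement of that seed, CTACCTC, was searched on the sense strand of the 3′ UTR of the longest coding transcript of each gene (GENCODE 29, GRCh38). LIN28A held 1 match in a 3′ UTR of 3264 bases, LIN28B held 4 in 4549 bases and PAX6 held 1 in 5142 bases. SOX2, DPPA4, OTX2, TNC and VIM had no match in this window. Each match is printed with 8 bases on either side, in the gene's sense direction, with the match in capitals.
LIN28A match, chr1:26427355-26427377, plus strand: ctattgaaCTACCTCatttttgc
LIN28B match 1, chr6:105078819-105078841, plus strand: tgcaaagtCTACCTCatgcaagt
LIN28B match 2, chr6:105081246-105081268, plus strand: gatagtaaCTACCTCtgagtttg
LIN28B match 3, chr6:105081428-105081450, plus strand: gcaaaaggCTACCTCatagttga
LIN28B match 4, chr6:105082867-105082889, plus strand: ggtgttgaCTACCTCttgaatca
PAX6 match, chr11:31787570-31787592, minus strand: agacatttCTACCTCctgacatt

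The levels are counts that the authors had divided by a size factor for each library, and the whole reads behind them numbered 17996634 to 44573013 per library. The knockout label was compared with the RNA level of PEDS1, which by itself does not show whether the protein was lost. Its normalized counts were 1360, 1347 and 1399 in controls 1 to 3 and 836, 765 and 1349 in the libraries labelled knockout 1 to 3, so the library labelled PEDS1 knockout replicate 3 lay within the control range. Over all 6 libraries PEDS1 had a log2 fold change of -0.52 (limma, adjusted p = 0.0725), and without that library it was -0.77 (limma, adjusted p = 0.000147). That library also stood apart from its own group: a chi-square per gene between libraries was 31.5 and 19.5 for the pairs that held it and 10.5 for the other knockout pair, against 2.65 to 11.7 among controls. The share of normalized counts from the mitochondrial genome was 3.13, 3.00 and 2.88 percent in controls and 2.76, 1.44 and 1.76 percent in libraries labelled knockout. NEUROG2, the driver, stood at 4996 ± 578 and 4636 ± 497 normalized counts (mean ± SD, n = 3 each; log2 fold change -0.11, limma adjusted p = 0.504).

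Of the 8 genes, LIN28A, LIN28B, OTX2, PAX6 and TNC rose in the libraries labelled PEDS1 knockout, SOX2 fell, and DPPA4 and VIM did not pass the test. The test was limma on log2(normalized count + 1) with Benjamini-Hochberg adjustment over all 16625 genes and a threshold of 0.05. By the same test 5.95 percent of all genes were higher and 7.69 percent lower, so 5 of 8 higher is above, and 1 of 8 lower near, the share among all genes. All 5 that rose had every knockout library above every control and SOX2 had every one below, while both others overlapped, against 37.1 percent of all genes whose groups did not overlap. The median log2 fold change was 0.63 over the 8 genes and -0.01 over all genes. These genes were chosen with earlier results of these data known. The shares and the median therefore describe the 8 genes and do not test them as a set. Because these were bulk libraries, more cells of a type and more RNA per cell cannot be told apart.

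**Figure D1:**
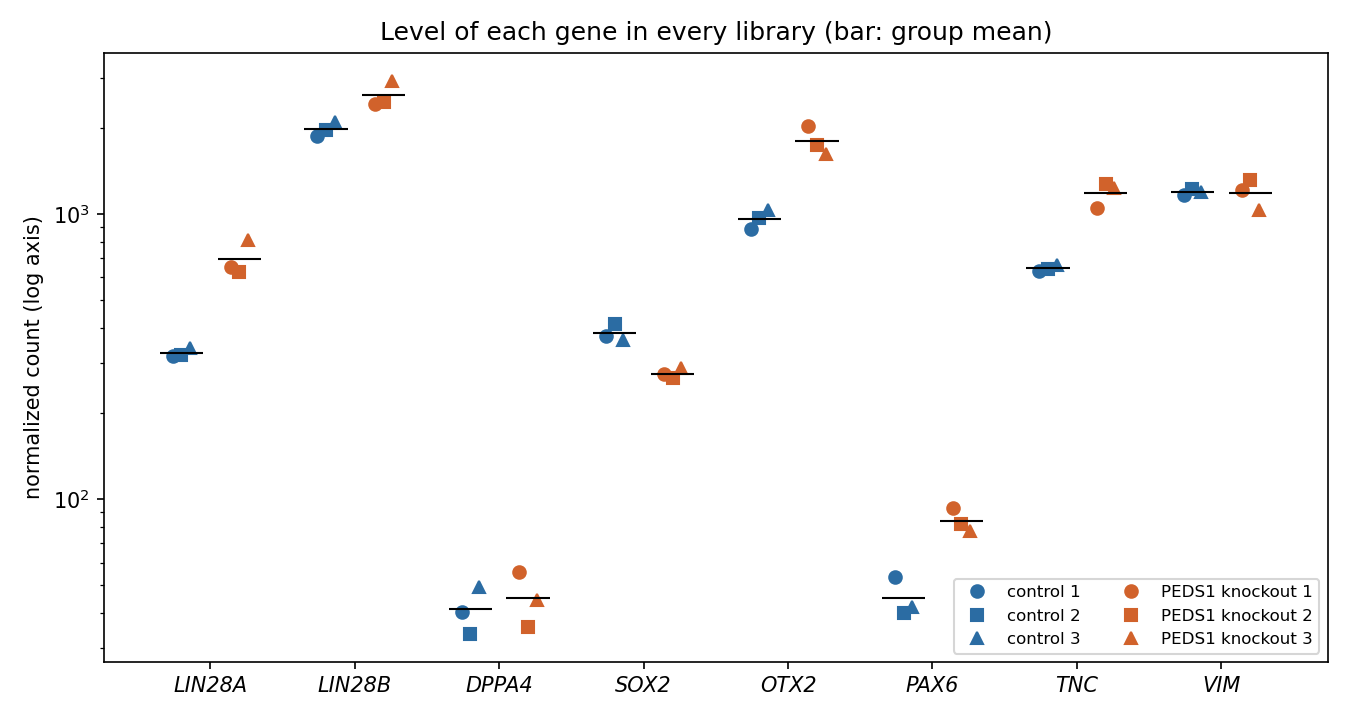
Normalized count (log axis) of each of the 8 genes in every library, with controls in blue, libraries labelled PEDS1 knockout in orange, the replicate number as the symbol and a bar at the group mean. LIN28A, LIN28B, OTX2, PAX6 and TNC lay higher in all 3 knockout libraries, SOX2 lay lower in all 3, and DPPA4 and VIM overlapped.

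LIN28A (ENSG00000131914; GRCh38 chr1:26410778-26429722, plus strand) had 318, 321 and 339 normalized counts in controls 1 to 3 and 652, 624 and 812 in the libraries labelled knockout 1 to 3. The groups were far apart, and the highest value came from the library with control-like PEDS1. The mean went from 326 ± 11.3 to 696 ± 101 (SD, n = 3 each), 2.14-fold higher, with a log2 fold change of 1.08 ± 0.11 (SE; 95% confidence interval 0.84 to 1.33; limma adjusted p = 0.000321). Only 57 of the 990 genes that rose, LIN28A included, had a log2 fold change at least as large. Its fold change stayed between 0.97 and 1.16 on the log2 scale under every other setting tried, all past the threshold. In the authors' deposited table the log2 fold change of LIN28A was 1.10 (adjusted p = 4.5e-15).

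LIN28B (ENSG00000187772; chr6:104936616-105083332, plus strand), the paralog with the same action on let-7, had 1886, 1975 and 2104 normalized counts in controls and 2441, 2468 and 2938 in the knockout libraries. All 3 knockout values lay above the highest control, and replicate 3 was again the highest. The change was 1.32-fold, from 1988 ± 110 to 2616 ± 279 (SD, n = 3 each), with a log2 fold change of 0.39 ± 0.09 (SE; 95% confidence interval 0.19 to 0.59; limma adjusted p = 0.0198). The call was lost without control 1 (0.35, limma adjusted p = 0.103) and without control 2 (0.39, limma adjusted p = 0.0982). With trends over GC content and length removed LIN28B stood at a log2 fold change of 0.25 (limma adjusted p = 0.00478), more than 1.5 times smaller though past the threshold, and leaving out the library labelled PEDS1 knockout replicate 3 gave 0.31 (limma adjusted p = 0.00979). The longest coding transcript of LIN28B has 38.1 percent GC and that of LIN28A 48.5 percent. Its antisense neighbour LIN28B-AS1 stood at 50.9 ± 1.43 and 45.5 ± 11.9 (limma adjusted p = 0.553); the library kit keeps strand, but no source used here gives the strand setting of the counting.

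Per kilobase of transcript, LIN28B was the more abundant paralog in every library, and its excess over LIN28A was smaller in the knockout group. The ratio of LIN28B to LIN28A per kilobase was 4.32, 4.48 and 4.52 in controls and 2.72, 2.88 and 2.63 in the libraries labelled knockout. These did not overlap, and an exact two-sided permutation test over the 6 libraries gave p = 0.1, the smallest that 3 against 3 allows (Benjamini-Hochberg adjusted p = 0.1 over the 3 ratios computed). The ratio does not use the size factors.

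DPPA4 (ENSG00000121570; chr3:109326141-109337572, minus strand), a chromatin-associated factor of pluripotent cells and the early embryo, was near the bottom of the set. It had 40.3, 33.6 and 49.4 normalized counts in controls and 55.8, 35.5 and 44.2 in the knockout libraries, with as few as 23 whole reads in a library. The groups overlapped throughout. Its log2 fold change was 0.13 ± 0.22 (SE; 95% confidence interval -0.36 to 0.62; limma adjusted p = 0.725), and its sign turned to -0.03 without knockout replicate 1 and to -0.00 without control 2.

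SOX2 (ENSG00000181449; chr3:181711924-181714436, plus strand) went the opposite way to the LIN28 genes. Normalized counts were 375, 411 and 363 in controls and 274, 266 and 288 in the libraries labelled knockout, with no overlap. The mean fell from 383 ± 25.3 to 276 ± 11.3 (SD, n = 3 each). On the log2 scale the change was -0.47 ± 0.09 (SE; 95% confidence interval -0.68 to -0.26; limma adjusted p = 0.0118). The call was lost without control 1 (-0.48, limma adjusted p = 0.0536) and without control 2 (-0.42, limma adjusted p = 0.0882). SOX2-OT, the long noncoding transcript that spans SOX2, stood at 20.4 ± 3.28 and 20.1 ± 1.51 (limma adjusted p = 0.986).

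OTX2 (ENSG00000165588; chr14:56799905-56810479, minus strand), the homeobox factor of anterior brain, had 884, 972 and 1033 normalized counts in controls and 2043, 1742 and 1620 in the knockout libraries. Every knockout value was above every control value, and replicate 3 was the lowest of its group. The mean went from 963 ± 74.7 to 1802 ± 218 (SD, n = 3 each), 1.87-fold higher, with a log2 fold change of 0.90 ± 0.10 (SE; 95% confidence interval 0.68 to 1.12; limma adjusted p = 0.000596). No other setting took the call away, and the log2 fold change ranged from 0.81 to 0.97 over them.

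PAX6 (ENSG00000007372; chr11:31784779-31818062, minus strand), the paired-box factor of eye and cortical progenitors, was expressed at a low level, with 53.4, 39.8 and 42.0 normalized counts in controls and 93.3, 81.9 and 77.1 in the knockout libraries. The groups were apart at every value. The log2 fold change was 0.89 ± 0.17 (SE; 95% confidence interval 0.52 to 1.27; limma adjusted p = 0.00912), 1.87-fold in normalized counts, and the call was lost without control 2 (0.81, limma adjusted p = 0.0517). A filter at a mean of 100 normalized counts removes PAX6 and DPPA4 altogether.

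OTX2 and PAX6 rose while SOX2 fell, and their ratios to SOX2 per kilobase moved accordingly. OTX2 to SOX2 was 1.98, 1.98 and 2.38 in controls and 6.24, 5.49 and 4.71 in the libraries labelled knockout. PAX6 to SOX2 was 0.0491, 0.0334 and 0.0399 in controls and 0.117, 0.106 and 0.0923 in the knockout libraries. Neither ratio overlapped between groups, and each gave p = 0.1 by the exact two-sided permutation test, again the smallest possible.

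TNC (ENSG00000041982; chr9:115019578-115118257, minus strand), tenascin-C, a matrix glycoprotein of the radial glial niche, had 633, 644 and 665 normalized counts in controls and 1053, 1274 and 1235 in the knockout libraries. The 3 controls lay within a narrow band, and all 3 knockout libraries were well above it. The mean went from 647 ± 16.6 to 1187 ± 118 (SD, n = 3 each), 1.83-fold higher, with a log2 fold change of 0.87 ± 0.09 (SE; 95% confidence interval 0.67 to 1.07; limma adjusted p = 0.000369). Its range over the other settings was 0.82 to 0.95, all past the threshold.

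VIM (ENSG00000026025; chr10:17228259-17237593, plus strand), the type III filament of progenitors, glia and mesenchymal cells, had 1165, 1225 and 1193 normalized counts in controls and 1214, 1318 and 1031 in the libraries labelled knockout. The knockout values lay on both sides of the control values. Its log2 fold change was -0.01 ± 0.10 (SE; 95% confidence interval -0.23 to 0.20; limma adjusted p = 0.935), an interval that leaves out changes of the size seen in OTX2, PAX6 or TNC. VIM-AS1, which overlaps VIM on the opposite strand, stood at 25.2 ± 1.97 and 17.4 ± 5.39 (limma adjusted p = 0.196).

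**Figure D2:**
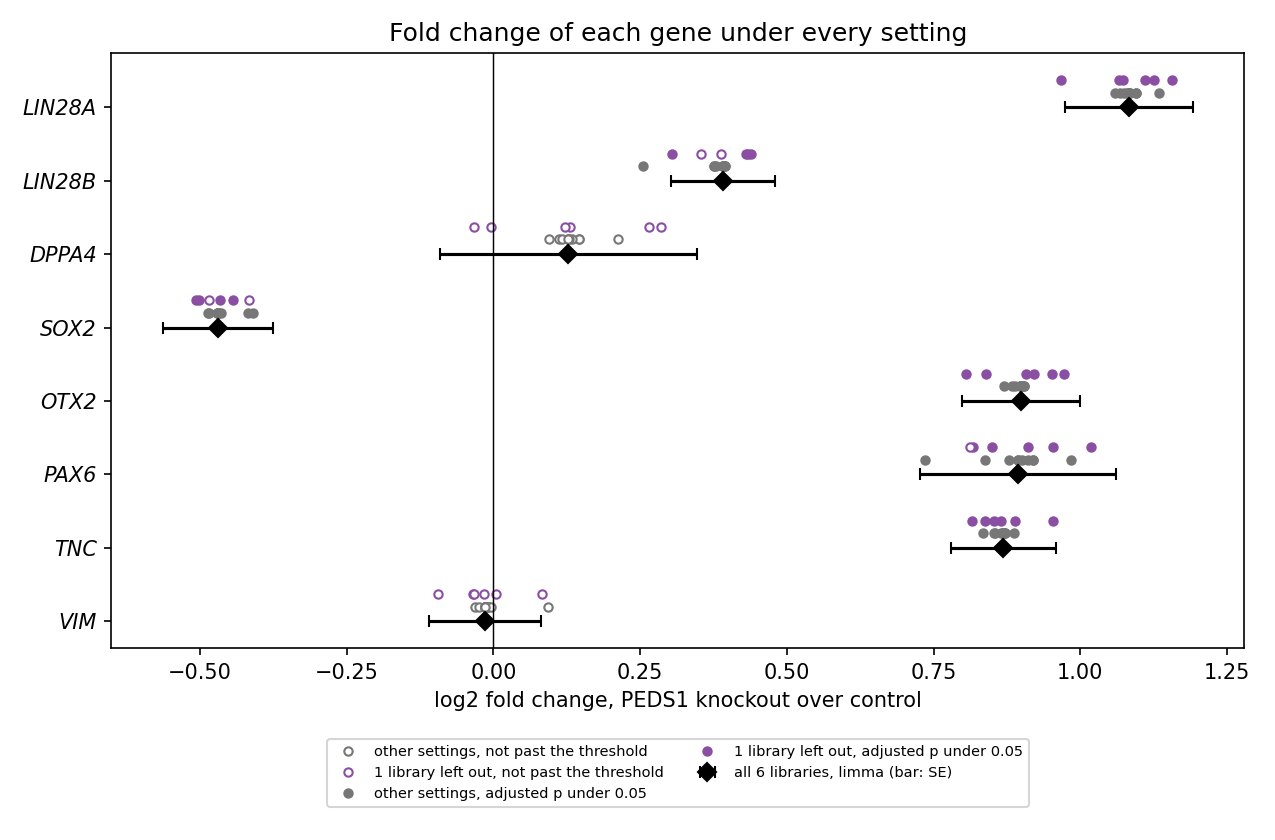
Log2 fold change (knockout over control) of the 8 genes with all 6 libraries (black diamond, bar: SE), with 1 library left out (purple) and under the other settings (grey), where filled points had an adjusted p under 0.05. LIN28A, OTX2 and TNC kept filled points throughout, LIN28B, SOX2 and PAX6 had open points where a control library was left out, and DPPA4 and VIM had open points only.

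Compared per kilobase of transcript, VIM was the most abundant of the 8 in controls, with 639 ± 16.2 normalized counts per kilobase (SD, n = 3), followed by LIN28B at 361 ± 19.9, OTX2 at 321 ± 24.9, SOX2 at 152 ± 10.1, TNC at 84.7 ± 2.18, LIN28A at 81.3 ± 2.81, DPPA4 at 14.6 ± 2.81 and PAX6 at 6.18 ± 0.998. LIN28B and OTX2 overlapped in this order, as did TNC and LIN28A. In the libraries labelled knockout the order of levels was VIM at 636 ± 77.9, OTX2 at 600 ± 72.7, LIN28B at 475 ± 50.8, LIN28A at 174 ± 25.3, TNC at 155 ± 15.5, SOX2 at 110 ± 4.48, DPPA4 at 16.0 ± 3.61 and PAX6 at 11.5 ± 1.14 normalized counts per kilobase. There VIM overlapped OTX2, LIN28A overlapped TNC and DPPA4 overlapped PAX6. SOX2 thus stood above both TNC and LIN28A in controls and below both in the knockout group.

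Other pluripotency genes gave no common direction. Of 31 listed markers 10 were in the table, with 2 higher, 0 lower and a median log2 fold change of 0.02, and the remaining 21, POU5F1 and NANOG among them, are not analysed here. SALL4, a zinc finger partner of the pluripotency network, rose from 328 ± 5.4 to 470 ± 65.6 normalized counts (log2 fold change 0.51, limma adjusted p = 0.0153). PRDM14, a repressor that guards naive pluripotency and germ cell fate, rose from 185 ± 27.2 to 267 ± 24.9 (log2 fold change 0.53, limma adjusted p = 0.0273). Neither gene was called when control 1 or control 2 was left out, and 1 gene was higher without knockout replicate 2. Proliferation genes, which dividing stem cells and progenitors share, had 2 of 14 higher and 0 lower with a median of 0.30: TOP2A, the topoisomerase of mitotic chromosomes, rose from 32.0 to 66.3 (limma adjusted p = 0.00749) and TPX2, a spindle assembly factor, from 191 to 268 (limma adjusted p = 0.0144), with 1 called without control 1 or 2 and 3 without knockout replicate 1 or 3.

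Of 31 neural progenitor and radial glial genes, 21 were in the table, with 3 higher, 2 lower, 16 not past the test and a median log2 fold change of 0.13. PTPRZ1, the radial glial receptor phosphatase that binds tenascin-C, rose from 555 to 920 normalized counts (log2 fold change 0.72, limma adjusted p = 0.00205), and PROM1, the progenitor surface protein CD133, from 138 to 222 (0.68, limma adjusted p = 0.00546). ID4, an inhibitor of proneural bHLH factors, fell by 0.37 on the log2 scale (limma adjusted p = 0.0074). Without knockout replicate 3, 5 were higher, and 3 were lower. Leaving out control 2 left none lower, and leaving out any library other than control 2 or knockout replicate 3 left 1 lower.

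Tenascin-C's receptors and matrix partners had 7 of 15 higher, 2 lower and a median of 0.24. ANXA2, an annexin that binds tenascin-C at the cell surface, rose from 883 to 1615 normalized counts (log2 fold change 0.87, limma adjusted p = 0.000431). VCAN, versican, a hyaluronan-binding proteoglycan, rose from 1643 to 2461 (0.57, limma adjusted p = 0.0107), and PTPRZ1 rose as above. ITGA8, the alpha subunit of a tenascin-binding integrin, fell from 129.9 to 76.4 (-0.76, limma adjusted p = 0.00631). The higher count was 3, 2 and 4 without control 1, 2 and 3, and 1 was lower without control 1 or 2, while 3 were lower without knockout replicate 3. The filament family of VIM had 4 of 12 higher and 1 lower, with a median of 0.19: PRPH, the filament of peripheral neurons, rose by 0.65 on the log2 scale (limma adjusted p = 0.0104), the neurofilament genes INA by 0.28 (limma adjusted p = 0.0274) and NEFH by 0.36 (limma adjusted p = 0.0397), and LMNA, a nuclear lamin, fell by 0.47 (limma adjusted p = 0.0207). That higher count was 1 without any one control or knockout replicate 2, and 2 without knockout replicate 1 or with TMM scaling, and LMNA was not called without control 1, control 2 or knockout replicate 1.

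Among 18 brain patterning genes in the table, the group to which OTX2 and PAX6 belong by role, 3 were higher and 3 lower, with a median of -0.08. ISL1, a motor and sensory neuron factor, rose from 756 to 1094 normalized counts (log2 fold change 0.53, limma adjusted p = 0.012). PAX2, a factor of the midbrain-hindbrain boundary, fell from 189 to 102 (-0.90, limma adjusted p = 0.00435), and EN2, an engrailed factor of the same boundary, from 34.8 to 14.7 (-1.20, limma adjusted p = 0.0158). Without control 1 these counts were 1 higher and 1 lower, without control 2 they were 2 and 1, without control 3 they were 2 and 3, without knockout replicate 1 or 2 they were 2 and 2, and without knockout replicate 3, 5 were lower.

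HES1 itself is not analysed here, and the Notch pathway around it had 5 of 28 higher, 1 lower and a median of 0.11. HEYL, a Notch-induced bHLH repressor, rose from 14.0 to 45.1 normalized counts (log2 fold change 1.63 ± 0.23, limma adjusted p = 0.00215). The ligands DLK1, a noncanonical one (112 to 163; 0.53, limma adjusted p = 0.0236) and JAG1, a canonical one (310.5 to 436; 0.47, limma adjusted p = 0.0317) also rose. RFNG, a fringe glycosyltransferase that modifies Notch, fell from 923 to 541 (-0.75, limma adjusted p = 0.00767). The higher count was 1 without any one of the controls and 3 without knockout replicate 2, and 3 were lower without control 3.

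The LIN28 and let-7 genes had 3 of 22 higher and 0 lower, with a median log2 fold change of 0.10. HMGA2, an architectural chromatin protein and textbook let-7 target, rose from 39.0 to 58.3 normalized counts (log2 fold change 0.57, limma adjusted p = 0.039). None of the 3 was called without any one of the controls, and 1 was called without knockout replicate 1 or 2. With GC and length trends removed 5 were higher and 2 lower, and 2 were lower without knockout replicate 3. TRIM71, a stem cell RNA-binding protein and let-7 target, and DICER1, which cuts the let-7 precursor, were set apart by 1 library. TRIM71 had 3384, 3334 and 3598 normalized counts in controls and 3588, 3733 and 6044 in the knockout libraries (limma adjusted p = 0.198), and DICER1 had 5620, 5633 and 6399 against 6213, 6258 and 10685 (limma adjusted p = 0.212). In both genes the high value was that of the library with control-like PEDS1.

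**Figure D3:**
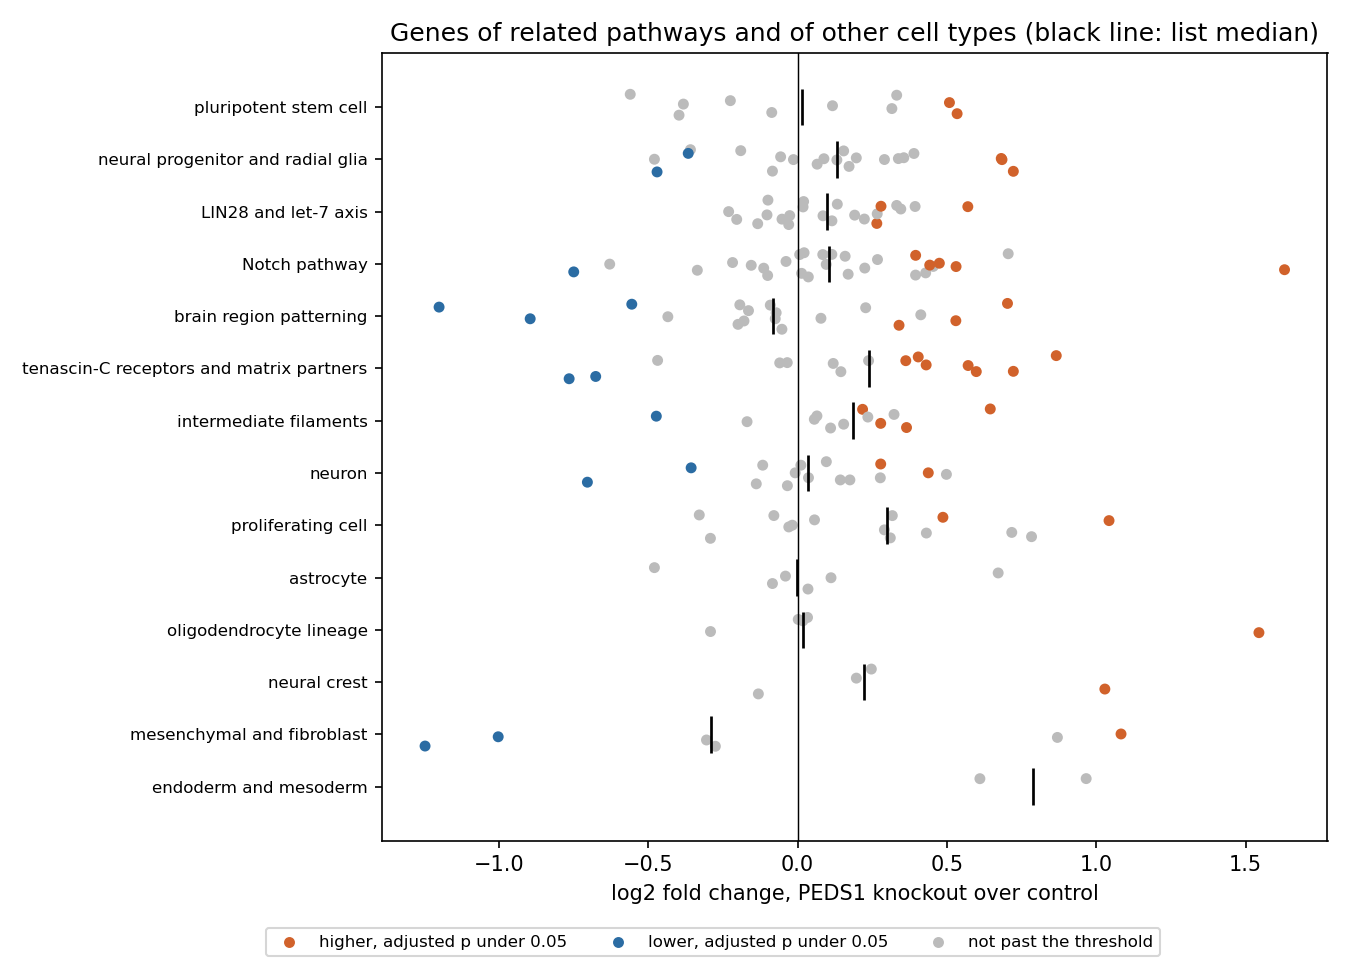
Log2 fold change (knockout over control) of the genes of each list, with 1 point per gene (orange: higher, blue: lower, both at adjusted p under 0.05; grey: not past the threshold) and a black line at the list median. Points lay on both sides of 0 in most lists, and tenascin-C receptors and matrix partners had 7 higher of 15.

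Since LIN28A and LIN28B both carry let-7 matches, all 13225 tested genes with an annotated 3′ UTR were grouped by their number of CTACCTC matches. Of these, 9.66 percent held 1 match and 1.35 percent held 2 or more, as LIN28B did. The median log2 fold change was -0.00 over 11768 genes with none, 0.07 over 1278 genes with 1 and 0.13 over 179 genes with 2 or more. Of these, 6.72, 9.08 and 10.6 percent were called higher and 8.6, 5.9 and 2.2 percent lower. UTR length moved with the number of matches, with medians of 1221, 2972 and 5171 bases, and its part in the order was not tested by itself. With GC and length trends removed the medians were 0.02, 0.03 and 0.04, with 12.6, 13.3 and 15.6 percent higher and 9.8, 9.0 and 6.1 percent lower. Leaving out the library labelled PEDS1 knockout replicate 3 the medians were 0.01, 0.04 and 0.03, with 12.4, 13.0 and 15.6 percent higher and 12.3, 10.6 and 5.6 percent lower.

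**Figure D4:**
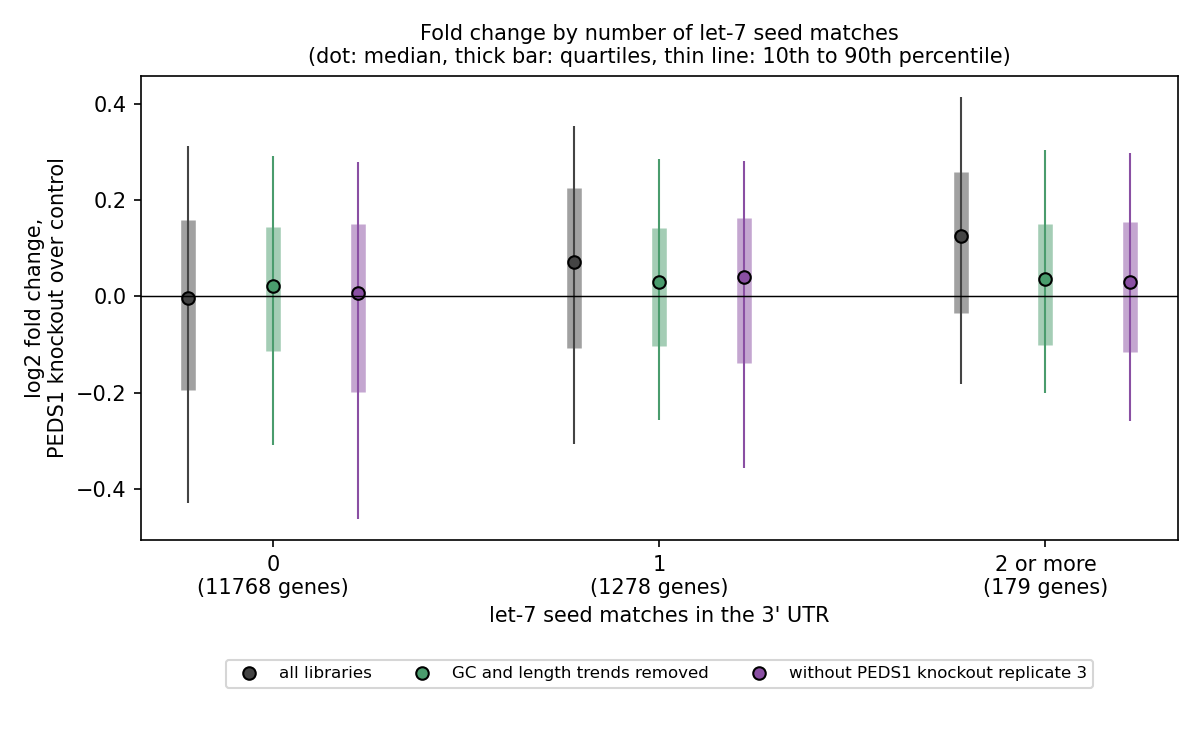
Log2 fold change (knockout over control) of genes with 0, 1 or 2 or more let-7 seed matches in the 3′ UTR, shown as median (dot), quartiles (thick bar) and 10th to 90th percentile (thin line). With all libraries the medians were -0.00, 0.07 and 0.13; with GC and length trends removed they were 0.02, 0.03 and 0.04.

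Bases upstream of the start site are shown for TNC and SOX2, a member that rose and a member that fell, because each holds a motif for a factor class of stem cells. They come from RefSeq (GRCh38.p14), 5′ to 3′ on the gene's strand, and end where either annotation first places the gene. Capitals mark the POU octamer ATGCAAAT in TNC, 189 bases before the RefSeq start, and the SOX motif ACAAAG in SOX2, 220 bases before it. Both strands were searched, and of 35116 promoter windows of equal length 1.77 percent held the octamer and 16.1 percent the SOX motif. The SOX motif also occurred in members that rose, once in LIN28B, 54 bases before a start, and 6 times over 3 of the 9 windows of PAX6. A match is a description of these letters and not a bound site.
TNC upstream, chr9:115118258-115118407, minus strand: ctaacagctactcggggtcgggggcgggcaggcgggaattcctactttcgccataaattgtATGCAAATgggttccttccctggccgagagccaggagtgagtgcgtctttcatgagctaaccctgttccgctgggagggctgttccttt
SOX2 upstream, chr3:181711675-181711923, plus strand: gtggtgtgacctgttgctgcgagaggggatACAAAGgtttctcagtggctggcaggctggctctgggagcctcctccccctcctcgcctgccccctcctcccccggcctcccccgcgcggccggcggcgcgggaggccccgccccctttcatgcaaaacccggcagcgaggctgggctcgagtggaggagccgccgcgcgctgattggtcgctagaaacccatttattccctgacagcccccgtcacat

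Markers of other cells were read beside these changes, and their part in the results was not tested. Of the 15 neuron genes all were in the table, with 2 higher, 2 lower and a median of 0.04: ELAVL4, a neuronal RNA-binding protein, rose by 0.44 on the log2 scale (limma adjusted p = 0.00403) and INA rose as above, while TUBB3, neuronal beta-tubulin, fell from 255 to 158 normalized counts (limma adjusted p = 0.0244) and RBFOX3, the splicing factor NeuN, fell by 0.36 (limma adjusted p = 0.0313). TUBB3 had the lowest control level of the 15, at percentile 39.4 of all genes, against 99.8 for MAP2 and 99.9 for STMN2. No source used here gives the counting tool or annotation, and whether reads of TUBB3 were lost in counting was not tested. Without knockout replicate 3, 6 neuron genes were higher, and 1 was without any one control, 3 without knockout replicate 1. None was lower without control 1, control 2 or knockout replicate 1, and 1 was without knockout replicate 2. The summed level of that list was 369266 to 385940 normalized counts in controls and 412616 to 419677 in knockout libraries, and that of the pluripotency list 5804 to 6078 and 6240 to 8869. The last value was that of knockout replicate 3, where TRIM71 was high, and without TRIM71 (left out after its values were seen) that sum was 2469.5 to 2518.5 in controls and 2652 to 2826 in knockout libraries. Proliferation genes summed to 2313 to 2389 and 2392 to 2629.

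Of 9 astrocyte genes 6 were in the table and 0 were called (6401 to 7188 summed normalized counts in controls, 5657 to 8959 in knockout libraries; median -0.00). Most of that sum was 1 gene, SLC1A2, with 6095, 6052 and 6865 in controls and 5345, 5884 and 8655 in knockout libraries. Of 9 oligodendrocyte lineage genes 5 were in the table and 1 was higher, with list sums of 409 to 443 and 547 to 551 and a median of 0.02. Of 10 neural crest genes 4 were in the table, where ETS1, an ETS factor of crest and endothelium, rose from 43.4 to 92.3 (limma adjusted p = 0.0219; list sums 980 to 1041 and 1087 to 1258; median 0.22). Of 13 mesenchymal genes 6 were in the table, with COL1A2, a fibrillar collagen chain, higher (16.7 to 37.1, limma adjusted p = 0.0156), and TAGLN, an actin-binding protein (120 to 60.4, limma adjusted p = 0.00813), and POSTN, periostin (45.9 to 20.3, limma adjusted p = 0.0473), lower. That list summed to 6062 to 6378 in controls and 4662 to 5615 in knockout libraries, with a median of -0.29. Most of that sum came from genes of the list that were not called, so the called genes do not account for its level. Without control 1 or 2 no neural crest gene and no mesenchymal gene was higher, and 1 mesenchymal gene was lower without any one control and 3 without knockout replicate 3. Leaving out that knockout library, 1 astrocyte gene was lower. Of 10 endoderm and mesoderm genes only KDR and GATA6 were in the table and 0 were called, with sums of 28.3 to 39.8 and 46.2 to 75.7 and a median of 0.79; 1 was higher without knockout replicate 1.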

How the data were processed

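PolyA RNA of 6 libraries was sequenced as stranded single-end reads of 100 bases, from 500 ng of total RNA, per the labels' protocols. The authors' deposited table holds signal, namely read counts per gene divided by a size factor for each library, with a log2 fold change, a Wald statistic (a score) and p-values beside them, per the file headers. STAR 2.7.10b, DESeq2 and GRCh38 are named in the submitters' processing notes. No source used here gives the counting tool, the annotation or the strand setting. Whole reads were recovered by dividing each deposited signal column by the value of 1 read, and 100 percent of values were whole within 1e-06. For control replicate 3 that step came from the gaps between values, since its smallest value was 4 reads.

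Log2(normalized count + 1) was tested with limma 3.58.1 (R 4.3.3) over the 16625 genes and 6 libraries, with Benjamini-Hochberg adjustment and a threshold of 0.05, and tested on simulated data first. The authors' adjusted p was empty in 1612 genes and was left so. Alternatives were another scaling, pseudocount, filter and threshold, each library left out, the replicate number as a block, GC and length trends removed, and edgeR 4.0.16 and DESeq2 1.42.0 on recovered reads. The labels used here do not separate the libraries by batch, so a batch difference between the groups could not be examined. Counts in the lists leave out the 10 genes. The 10 genes, the gene lists and the comparisons were chosen with earlier results of these data known. The text names all 10 symbols, PEDS1, up to 4 genes per list with the smallest adjusted p (or the pair with the highest mean where none passed) and the 3 nearest profiles of each member; TRIM71, DICER1, NEUROG2 and the overlapping antisense genes were named after their values were seen. Some list genes chosen this way are not reported here. Sequences are RefSeq's, and 3′ UTRs are GENCODE 29's.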

Additional observations from a re-analysis of the deposited data

How the results depend on the processing

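LIN28A, OTX2 and TNC kept their direction and their call under every alternative run, and VIM and DPPA4 were called under none. At an adjusted p under 0.01 the calls of LIN28B (log2 fold change 0.39) and SOX2 (-0.47) were lost, which left 0 of the set lower, 268 genes higher and 372 lower among all genes, and 9 higher and 5 lower in the fixed lists. With GC and length trends removed 1790 genes were higher. Leaving out each library in turn gave log2 fold changes of 0.31 to 0.44 for LIN28B, 0.81 to 1.02 for PAX6 and -0.51 to -0.42 for SOX2, 3 to 5 of the set higher and 0 to 1 lower, 247 to 1728 genes higher and 335 to 1849 lower among all genes, and 11 to 41 higher and 4 to 20 lower in the fixed lists, against 32 and 13 with all libraries. The lowest counts came without control 2 (3 of the set higher: LIN28A, OTX2 and TNC), and the highest over all genes when knockout replicate 3 was left out; the cause was not tested. Counts in single lists were equal or within 1.5 times in 410 cases, which include counts of 0 that stayed 0, and moved further in 94.

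Same-numbered control and knockout libraries did not deviate together (correlations -0.30, 0.10 and -0.05 over 11705 genes). Libraries with different numbers gave correlations of -0.22 to 0.27. No pairing by number was seen, and 3 libraries a group are too few to exclude it. With the replicate block 5 of the set were higher and 1 lower, with 698 genes higher and 862 lower among all genes. Depth limited DPPA4 and PAX6 most, with under 100 normalized counts in every library. The median SE of genes with a mean of at least 100 was 0.09 on the log2 scale.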

Other observations

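The genes whose profile over the 6 libraries was most like that of a member were found by the root mean square difference of mean-centred log2 values, among 11454 or 11455 genes with a symbol and a mean of 100 or more normalized counts. For LIN28A these were ANO3 (0.062), MYOCD (0.067) and PHLDA1 (0.081). For LIN28B they were TRIM2 (0.0081), SLK (0.016) and PLCB1 (0.018). OTX2 and PAX6 shared ANXA2 and VAMP1 among their nearest 3, beside ERRFI1 for OTX2 and FRMPD1 for PAX6, at differences of 0.078 to 0.090 for OTX2 and 0.13 to 0.14 for PAX6. TNC lay nearest to CALCRL (0.057), PDLIM3 (0.058) and PDE1A (0.058). SOX2 lay nearest to KCNJ9 (0.037), TSPAN33 (0.037) and CDK20 (0.041). The profile of VIM, which did not pass the test, was nearest to LYPLAL1, PFDN6 and ZNF394, and that of DPPA4 to COL11A1, HULC and ZNF571-AS1. For the members that were called, a likeness over 6 libraries in 2 groups is mostly a likeness in fold change. For VIM and DPPA4, with little fold change, it lies mostly in how single libraries differed within a group.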
